A study of Homo sapiens with 4 samples.

Results

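The 6 genes described here, ATM, RNF168, RIF1, PAXIP1, BRCA1 and BRCA2, encode proteins that act with or against 53BP1 at DNA double-strand breaks. Members were the deposited regions that overlapped the hg19 span of one of these genes widened by 5 kb on each side, so a region is a member by its position alone. The genes add up to 473 kb, and the widened spans to 533 kb. The widened spans held 5 of 11604 regions of the 53BP1 list, 50 of 62530 of the Pol II S5p list and 59 of 54600 of the Pol II S2p list.

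The data are ChIP-seq of MCF10A, an immortalised human breast epithelial cell line that does not form tumours, grown under standard conditions with no DNA-damaging agent named in the labels. The 4 samples are ChIPs for 53BP1, for RNA polymerase II phosphorylated on serine 5 (S5p) and for Pol II phosphorylated on serine 2 (S2p), and an input that was not analysed here. S5p is the form of Pol II at and just after transcription starts, and S2p is the elongating form. Each ChIP had 1 library of a single cell line, so no value below has a replicate error and no difference was tested. All 3 deposited lists give a fold enrichment per region, which is the authors' value over background. Here it ranks a region within its own list, as a percentile that counts the regions of equal or lower fold. Read depth is unknown, so how many regions a list has, and how wide they are, says nothing between ChIPs. A missing region means not detected. The epithelial identity of the cells was not checked against marker genes, because no hg19 positions of such genes were used here.

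53BP1 is a chromatin reader that gathers at double-strand breaks and protects the broken ends from resection, which favours end joining. ATM is the kinase that starts this signalling. RNF168 is the ubiquitin ligase that writes the mark on histone H2A that 53BP1 reads. RIF1 and PAXIP1 (also called PTIP) bind phosphorylated 53BP1 and carry out its functions, whereas BRCA1 opposes 53BP1 and, with BRCA2, directs repair into homologous recombination. The values below concern the genes of these proteins as places on the genome, and not the proteins themselves.

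In 5 of the 6 genes the 53BP1 list held exactly 1 region, and in all 5 it lay at the start of the gene. RIF1 had none. Every start carried both an S5p and an S2p region. Here a region counts as at the start when it comes within 1 kb of the span's upstream end. No 53BP1 region lay in a gene body or past a gene end, although S5p and S2p regions did. How many gene starts over the genome carry such regions was not counted, as hg19 positions of other genes were not used. These counts are therefore not shown to be particular to the 6 genes.

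To show what lies at these starts, the 140 bases just before the RefSeq start (GRCh38.p14, gene strand, 5′ to 3′) are printed for the 5 genes of the RefSeq promoter table that matched. PAXIP1 is named only. The first 4 genes had a 53BP1 region at the start and RIF1 did not. Capitals mark matches to 4 short motifs on either strand. Sites for the ETS family of factors were searched only in the form CCGGAA, and the GC box, which Sp1 binds, as GGGCGG. The box bound by NF-Y was searched as CCAAT, and the CRE half-site, which CREB and ATF factors bind, as TGACG. The RefSeq start need not be the same base as the hg19 span end used for distances.
ATM, chr11:108222927-108223066, plus strand: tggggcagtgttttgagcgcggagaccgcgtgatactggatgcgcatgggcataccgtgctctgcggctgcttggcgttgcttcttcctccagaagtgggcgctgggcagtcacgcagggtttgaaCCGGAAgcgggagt
RNF168, chr3:196503769-196503908, minus strand: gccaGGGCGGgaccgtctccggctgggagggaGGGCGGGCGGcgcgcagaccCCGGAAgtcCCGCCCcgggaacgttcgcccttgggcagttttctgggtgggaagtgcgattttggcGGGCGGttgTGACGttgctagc
BRCA1, chr17:43125365-43125504, minus strand: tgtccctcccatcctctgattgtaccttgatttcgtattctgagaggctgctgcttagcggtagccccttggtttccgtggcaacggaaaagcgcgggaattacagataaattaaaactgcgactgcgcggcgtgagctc
BRCA2, chr13:32315368-32315507, plus strand: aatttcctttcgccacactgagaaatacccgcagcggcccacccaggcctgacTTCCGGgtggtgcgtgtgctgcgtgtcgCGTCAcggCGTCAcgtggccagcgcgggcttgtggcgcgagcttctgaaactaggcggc
RIF1, chr2:151409762-151409901, plus strand: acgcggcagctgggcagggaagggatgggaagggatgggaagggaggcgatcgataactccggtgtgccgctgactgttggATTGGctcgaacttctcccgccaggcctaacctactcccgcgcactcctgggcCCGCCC

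CCGGAA was present before ATM, RNF168 and BRCA2, and in 10.7% of the 35116 windows of this length in the table. Neither the BRCA1 nor the RIF1 window held this form. Both hold the shorter GGAA, which was not searched, so a lack of ETS sites is not shown. The GC box had 5 matches before RNF168, of which a pair overlap each other, and 1 before RIF1, and 35.9% of all windows held it. The CRE half-site had 1 match before RNF168 and 2 before BRCA2, and was in 14.7% of all windows. Among the 5 genes, only RIF1 had a match to the NF-Y box, which 22.6% of all windows held. The p53 half-site was in none of the 5 windows and in 2.90% of all. The motifs were chosen after the sequences had been seen, a match shows only that the letters are there, and no match says only that they are not in these bases. GC content was 62.1% for ATM, 70.7% for RNF168, 52.1% for BRCA1, 65.0% for BRCA2 and 65.7% for RIF1, with a median of 60.0% over all windows.

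ATM had its 53BP1 region on chromosome 11 at 108093123 to 108094228 (hg19), from 436 bp before to 669 bp after the gene start. Its fold was 6.62, percentile 58.4 of the 53BP1 list, and it was 1106 bp wide. The S5p region at the ATM start had a fold of 23.2 (percentile 89.8), and the S2p region there a fold of 2.88, percentile 25.5. By fold, ATM was thus the gene where the ranks of the start regions were farthest apart, 64.3 percentile points. By the deposited −log10 q-value it was RNF168 (40.5 points, against 39.2 at ATM), and by region width PAXIP1 (63.7 points, against 52.4 at ATM). The 53BP1 summit was 280 bp inside the gene, 47 bp from the S2p summit. The S5p summit lay on the other side of the start, 252 bp upstream and 532 bp from the 53BP1 summit. NPAT, a protein-coding gene on the opposite strand, begins 429 bp upstream of ATM in the GRCh38 table. Signal from the pair cannot be told apart in these regions.

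RNF168 had its 53BP1 region on chromosome 3 at 196230092 to 196230881, 790 bp wide, with a fold of 6.48. That was percentile 57.1, the lowest of the 5. The S5p region at the start had a fold of 27.8 (percentile 91.6) and the S2p region a fold of 4.02 (percentile 61.6). All 3 summits lay just inside the gene, at 167 bp for 53BP1, 111 bp for S5p and 193 bp for S2p. The nearest annotated gene upstream, a long noncoding RNA gene, is 1584 bp away in the GRCh38 table.

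PAXIP1 differed from the other 4 in position. Its 53BP1 region, on chromosome 7 at 154794932 to 154795709, ended 250 bp before the gene start and held no base of the gene. It is a member only through the widening of the span. Its fold was 7.14 (percentile 63.8) and its width 778 bp. The S5p region there, 5189 bp wide with a fold of 48.9, had the highest percentile of the 6 start regions of that list, 97.0. Of the 2 S2p regions at this start, the stronger had a fold of 7.41 (percentile 86.2). The 3 summits fell within 50 bp of each other on the upstream side, at 546 bp before the start for 53BP1, 517 bp for S5p and 567 bp for S2p. In the GRCh38 table the long noncoding RNA gene PAXIP1-DT, which runs the opposite way, is 22 bp from PAXIP1. The other S2p region at this start lay inside PAXIP1, from 264 to 4422 bp, with a fold of 6.15.

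BRCA1 had its 53BP1 region on chromosome 17 at 41277187 to 41277824, 638 bp wide, with a fold of 7.27 (percentile 65.9). The S5p region at the start had the lowest percentile of the 6 genes, 85.7, with a fold of 14.8 and a width of 3555 bp. The S2p region there had a fold of 5.05 (percentile 74.7). The 53BP1 summit lay 119 bp inside the gene, 172 bp from the S5p summit, which was 53 bp upstream, and 682 bp from the S2p summit at 801 bp. NBR2, a long noncoding RNA gene on the other strand, starts 193 bp away in the GRCh38 table. The promoter table also lists a second BRCA1 window 45.0 kb away, and 155 aligned columns of the 2 windows were 88.4% identical. How the authors treated reads that match both copies is not given in the sources used here.

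BRCA2 had the strongest 53BP1 region of the set. It lay on chromosome 13 at 32889386 to 32890019, 634 bp wide, with a fold of 10.2 (percentile 86.6). The S5p region at the start had a fold of 31.5 (percentile 93.0) and the S2p region a fold of 5.07 (percentile 74.8). All 3 summits lay inside the gene within 24 bp of each other, at 87 bp for 53BP1, 64 bp for S5p and 63 bp for S2p. ZAR1L, a protein-coding gene on the opposite strand, begins 145 bp upstream of the BRCA2 start used for the printed window, so the regions at this start cannot be assigned to either gene.

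**Figure D1:**
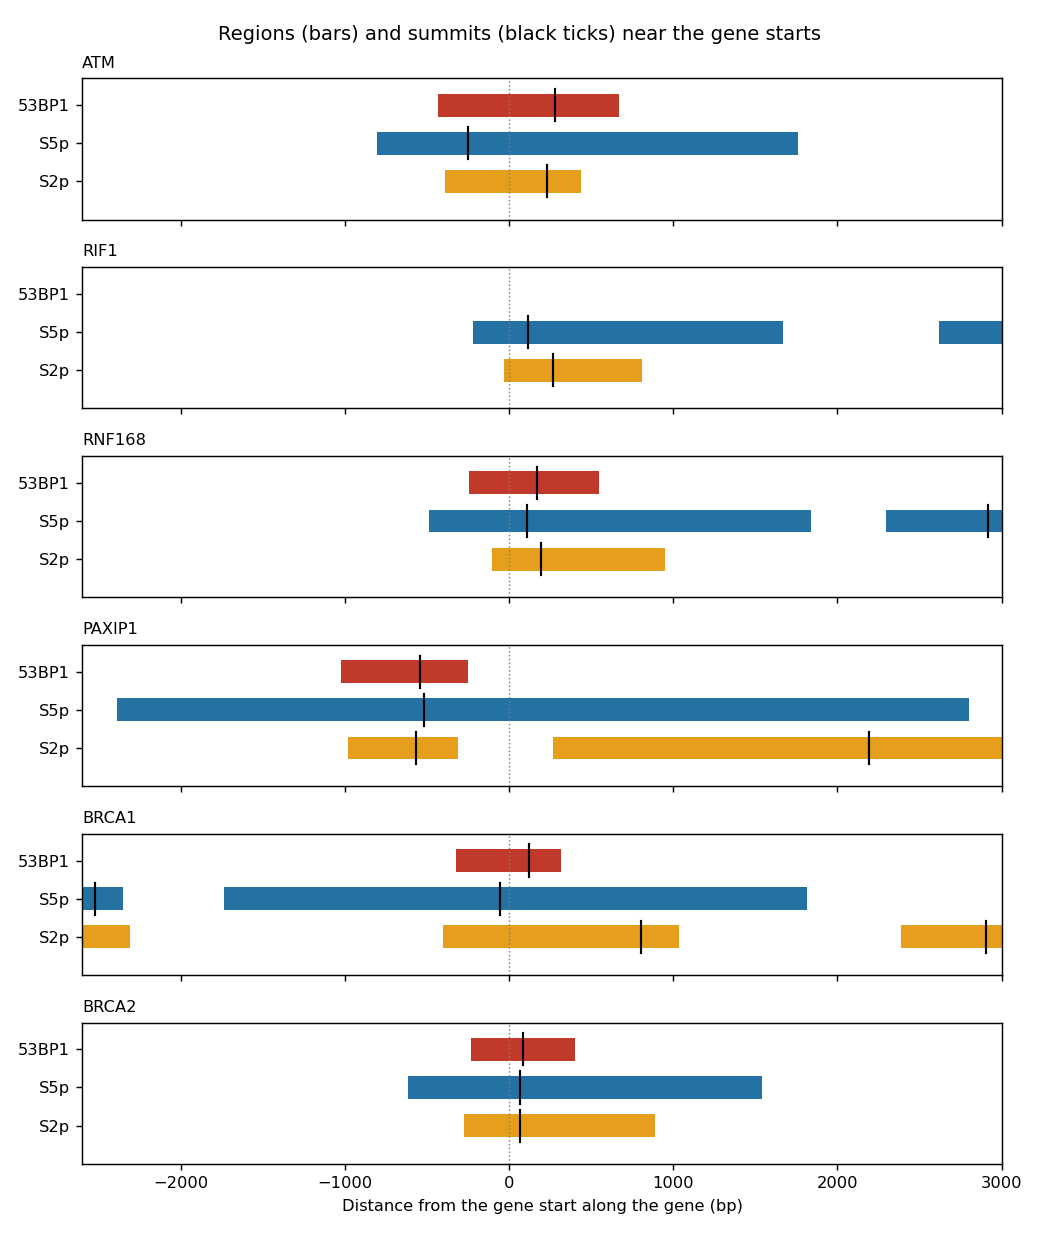
Deposited regions (bars) and their summits (black ticks) against distance in bp from the start of each gene along its strand, 1 panel per gene, with 53BP1, S5p and S2p as rows. The 53BP1 region crosses the start of ATM, RNF168, BRCA1 and BRCA2, ends 250 bp before that of PAXIP1, and is missing at RIF1.

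Each of the 5 53BP1 regions lay wholly inside an S5p region, with 100% of its bases covered. All 5 met S2p as well, with 75.0% of the bases covered at ATM, 82.4% at RNF168, 86.0% at PAXIP1 and 100% at BRCA1 and BRCA2. The exact Clopper-Pearson 95% interval of 5 of 5 runs from 47.8 to 100%. Over the whole 53BP1 list, 97.6% of regions were on S5p, 78.9% on S2p and 78.6% on both, so counts of 5 of 5 are near the background. The distance between 53BP1 and S5p summits was 23 bp at BRCA2, 29 bp at PAXIP1, 56 bp at RNF168, 172 bp at BRCA1 and 532 bp at ATM. The median over all 53BP1 summits inside an S5p region was 78 bp, with quartiles of 23 and 305 bp, so ATM was beyond the upper quartile. To the S2p summit the distance was 21 to 47 bp in 4 genes and 682 bp at BRCA1, against a median of 177 bp and quartiles of 52 and 1138 bp over the list.

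By 53BP1 fold the genes ran from BRCA2 (10.2) over BRCA1 (7.27), PAXIP1 (7.14) and ATM (6.62) to RNF168 (6.48). The median of the 5 was 7.14, against 6.02 over the list. By S5p fold the order was PAXIP1 (48.9), BRCA2 (31.5), RNF168 (27.8), ATM (23.2), RIF1 (22.2) and BRCA1 (14.8). The orders differ: BRCA1 was last of the 6 by S5p and next after BRCA2 by 53BP1. With 1 library per ChIP, no neighbours in either order can be said to differ.

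**Figure D2:**
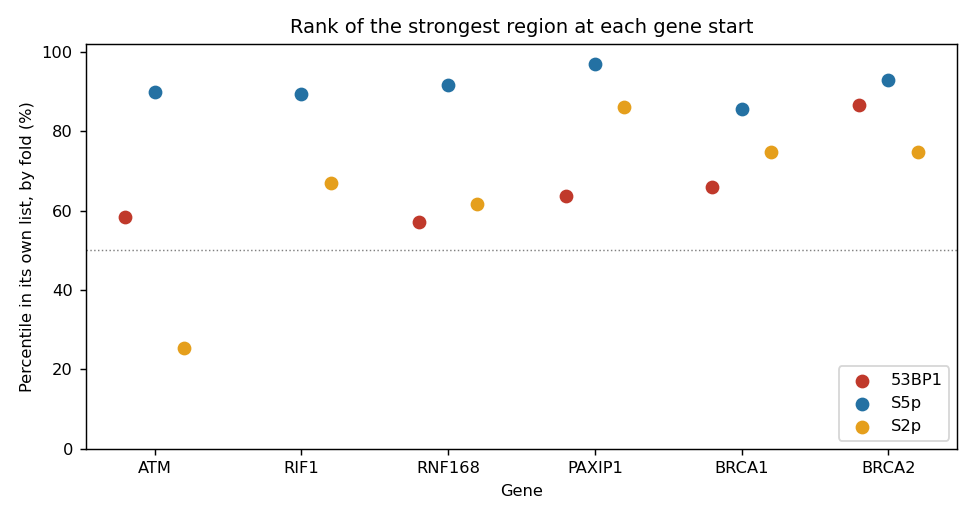
Percentile of the deposited fold within its own list (vertical axis, %) for the strongest region at each gene start; colours stand for 53BP1, S5p and S2p, and the dotted line marks 50%. S5p sits between 85.7 and 97.0 in all 6 genes, 53BP1 between 57.1 and 86.6 in the 5 genes that have it, and S2p between 25.5 at ATM and 86.2 at PAXIP1.

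RIF1 was the only one of the 6 starts without a 53BP1 region. The S5p region at its start had a fold of 22.2 (percentile 89.3) and a width of 1887 bp, from 221 bp before to 1665 bp after the start. The S2p region had a fold of 4.36 (percentile 66.9). ATM, with a 53BP1 region, had an S5p fold of 23.2, and BRCA1, also with one, had 14.8, so RIF1 was not set apart by its S5p rank. The nearest 53BP1 region (chromosome 2, 152146002 to 152146393) lay 120.0 kb upstream of the RIF1 start and had a fold of 3.99. In the GRCh38 table the nearest gene upstream of RIF1 is TNFAIP6, 28.6 kb away. The other 5 genes have a neighbour between 22 and 1584 bp upstream. Whether a neighbour bears on 53BP1 at a start was not tested.

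Of the 6 S5p regions at the starts, 5 held 53BP1 (83.3%, exact interval 35.9 to 99.6). Over the whole S5p list the share was 15.2%, but it climbs steeply with S5p rank. With the list divided into 20 equal bins by fold, ATM, RIF1 and BRCA1 fell in bin 18, where 2099 of 3127 regions held 53BP1 (67.1%). RNF168 and BRCA2 fell in bin 19, with 92.3%, and PAXIP1 in bin 20, with 98.8%. In a narrower range, among S5p regions with a fold within 10% of that at RIF1, 975 of 1203 held 53BP1 (81.0%). The same range around BRCA1 gave 51.3%, around ATM 83.3%, around RNF168 90.5%, around BRCA2 93.7% and around PAXIP1 98.2%. A count of 5 of 6 is thus close to what S5p regions of these ranks showed in general. At RIF1 itself a lack was the less common outcome, since 81.0% of S5p regions in its range held 53BP1.

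The fold of 53BP1 can be read in the same way, against the strongest 53BP1 region on each S5p region of the same bin that had one. ATM with 6.62 and BRCA1 with 7.27 stood beside a median of 5.37 in bin 18 (quartiles 4.48 and 6.80). RNF168 with 6.48 and BRCA2 with 10.2 stood beside a median of 6.55 in bin 19 (quartiles 5.29 and 8.22). PAXIP1 with 7.14 stood beside a median of 8.82 in bin 20 (quartiles 6.86 and 11.7). BRCA1 and BRCA2 were thus above the upper quartile of their bins, and the other 3 lay between the quartiles. For S2p, RIF1 and BRCA1 at percentiles 66.9 and 74.7 were between the quartiles of bin 18 (39.3 and 91.5, median 66.1), and ATM at 25.5 was below them. RNF168 at 61.6 was just below the lower quartile of bin 19 (61.9 and 90.2, median 75.7), and BRCA2 at 74.8 was between the quartiles. PAXIP1 at 86.2 was between those of bin 20 (82.7 and 97.3, median 90.1).

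**Figure D3:**
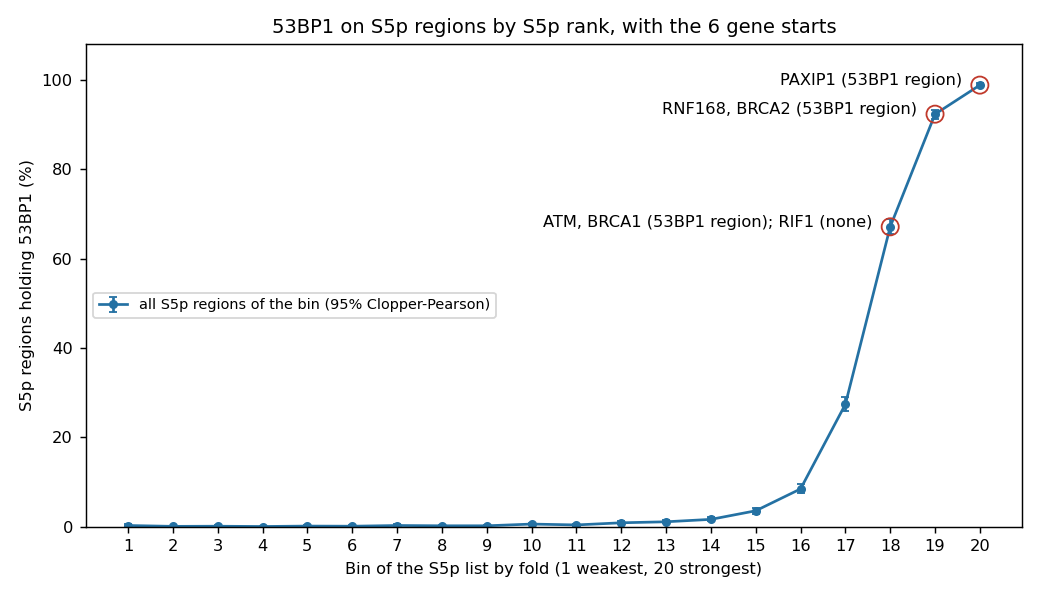
Share of S5p regions holding 53BP1 (vertical axis, %) in 20 equal bins of the S5p list by fold; bars are exact 95% intervals for counting error, and red circles mark the bins of the 6 gene starts. The share is 67.1% in bin 18 (ATM, BRCA1 and RIF1), 92.3% in bin 19 (RNF168 and BRCA2) and 98.8% in bin 20 (PAXIP1).

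Away from the starts, 44 S5p and 52 S2p regions lay in the bodies and flanks of the 6 genes, and none held 53BP1. The exact intervals allow up to 8.04% and 6.85%. The strongest of these S5p regions, 2294 to 4394 bp inside RNF168, had a fold of 7.63 (percentile 78.4). Of all S5p regions at or below that fold, 0.948% held 53BP1, so a count of 0 is near the background. Of all 59 S2p regions of the 6 genes, starts included, 5 held 53BP1 (8.47%, interval 2.81 to 18.7), against 13.9% of the whole S2p list. That list share takes in S2p regions at gene starts. No share at like fold was computed for the 52 away from the starts, so whether their count of 0 is low was not tested.

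The bodies differed most in how far Pol II regions reached. RIF1 stood out by its numbers, with 27 S5p and 24 S2p regions, more than the other 5 genes together had of S5p (23) and fewer than they had of S2p (35). The larger S5p number rested on weak regions: with a −log10 q-value of at least 5, RIF1 had 10 and the other 5 genes 11, and in the upper 50% of the list by fold RIF1 had 8 and the others 9. S5p regions covered 46.1% of the RIF1 span and S2p regions 48.4%, with some cover in each of 10 equal parts of the gene (18.0 to 74.0% for S5p and 20.5 to 90.8% for S2p). These body regions were weak and fragmented: the 25 S5p regions had folds of 2.09 to 5.46 with a median of 3.22, and the 21 S2p regions 2.42 to 5.80 with a median of 3.40. By an overlap of at least 1 bp, 23 of the 25 S5p regions met S2p and 19 of the 21 S2p regions met S5p. Over the whole lists the shares were 60.2% and 54.9%. With cover this wide, such overlap does not show that S5p and S2p lay in the same places. RIF1 thus had the widest cover of both Pol II forms. Whether this bears on its lack of a 53BP1 region was not tested. NEB overlaps the RIF1 entry of the GRCh38 table, which is longer (124534 bp) than the 67464 bp span used here.

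**Figure D4:**
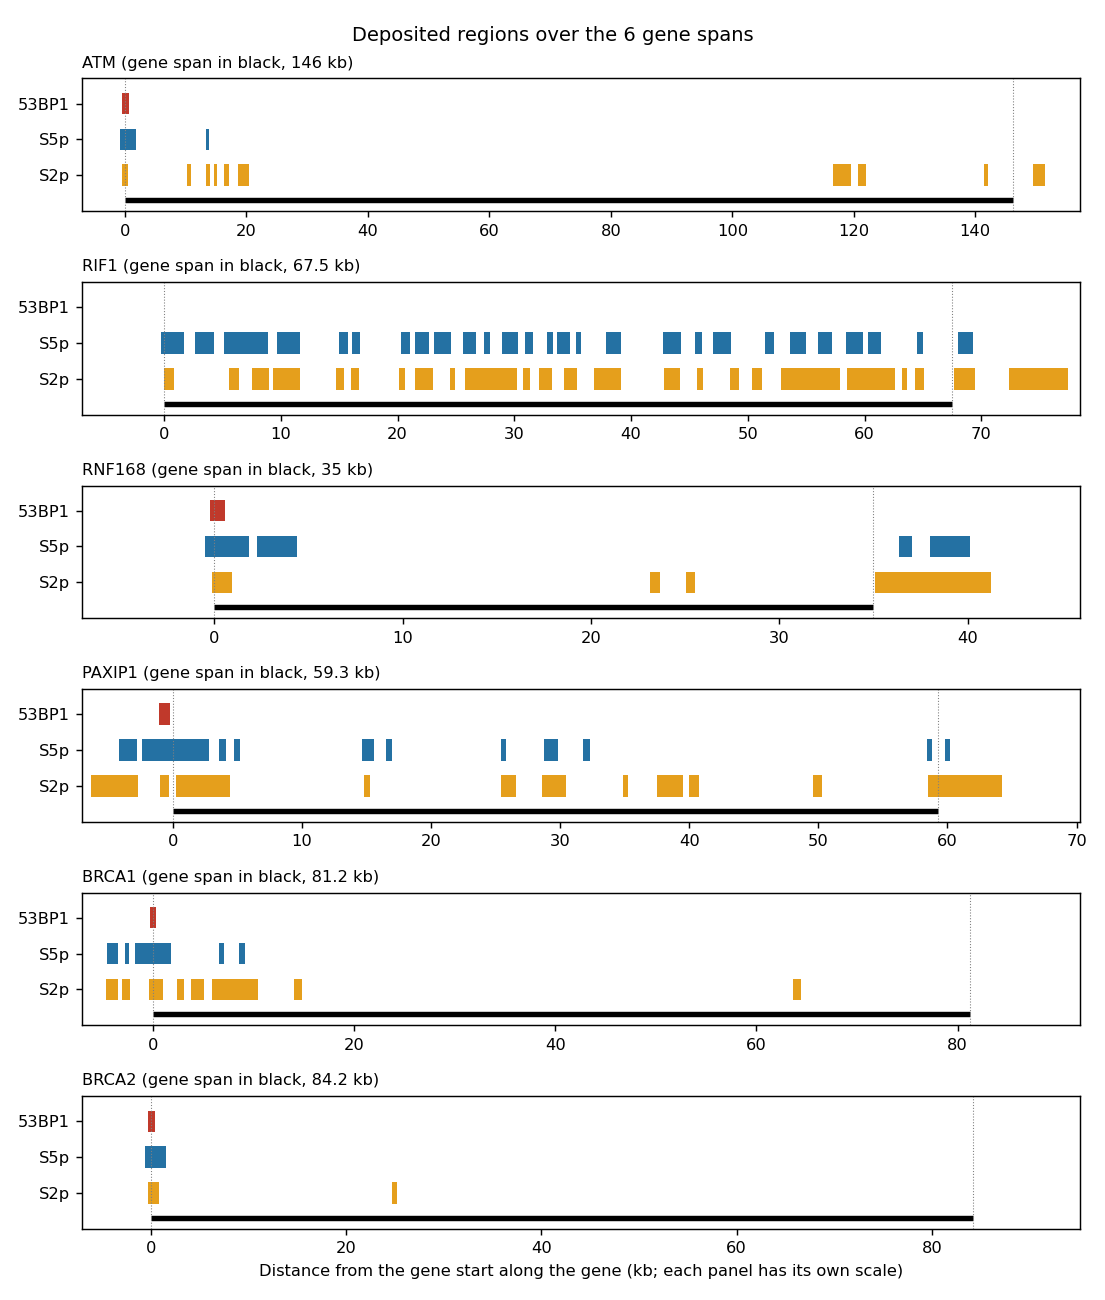
Deposited regions of the 53BP1, S5p and S2p lists (rows) along each gene, against distance in kb from its start; the black line is the gene span and each panel has its own scale. RIF1 carries 27 S5p and 24 S2p regions along its 67.5 kb, and in each of the other genes the single 53BP1 region lies at the start.

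PAXIP1 had the next widest cover, 12.9% of its span by S5p and 20.9% by S2p. For S5p this held only with all regions counted. Under the q-value limit of 5, and likewise in the upper 50% by fold, S5p covered 5.65% of PAXIP1 and 11.3% of RNF168, which was then next after RIF1. S2p regions lay in 7 of the 10 equal parts of PAXIP1, with 37.4% of part 5 and 47.4% of part 7 covered, and its strongest body S2p region had a fold of 5.30 at 28585 to 30473 bp from the start. The highest S2p cover of PAXIP1 was in part 1, at its start, with 70.2%. In BRCA1, too, S2p cover was highest in part 1, but little lay beyond part 2. It covered 65.3% of part 1 and 39.2% of part 2 of BRCA1. A region from 5856 to 10458 bp there had a fold of 7.04 (percentile 85.0). Beyond 14855 bp only 1 weak S2p region was listed, at 63651 to 64445 bp with a fold of 2.60. S5p regions stopped at 9148 bp in BRCA1.

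ATM, the longest of the 6 at 146 kb, had S2p regions in patches: 5 regions between 10177 and 20501 bp, then none until 116494 bp, and 3 between there and 142090 bp. In all, S2p covered 6.73% of ATM and S5p 1.52%. The only S5p region beyond the ATM start, at 13366 to 13828 bp with a fold of 3.14, met an S2p region. RNF168, the shortest at 35.0 kb, had 2 S2p regions in its body, with folds of 2.11 and 2.55. BRCA2 had the least Pol II of all beyond its start: no S5p region, and 1 S2p region at 24758 to 25210 bp with a fold of 3.20. S2p covered 1.60% of BRCA2, of which 33.7% of the bases were in that body region, and S5p covered 1.83%, all of it at the start.

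**Figure D5:**
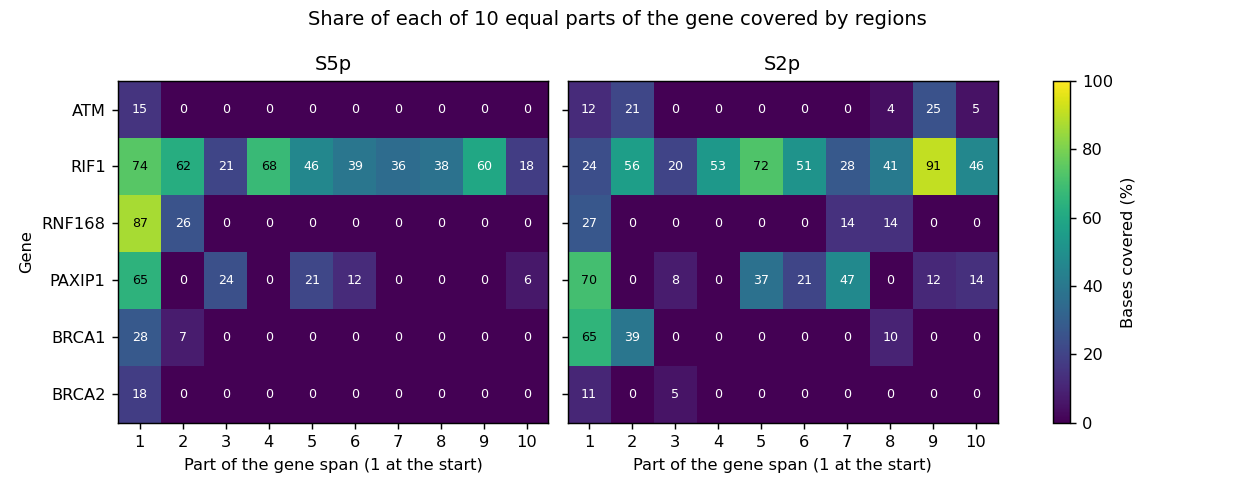
Share of bases covered by S5p (left) and S2p (right) regions in 10 equal parts of the gene span from start (1) to end (10), in %, with a row per gene; a part is 3498 bp long in RNF168 and up to 14627 bp in ATM. RIF1 is covered in all 10 parts of both maps, BRCA1 by S2p in parts 1, 2 and 8, and BRCA2 by S5p in part 1 alone.

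Regions past the gene ends split the set. S2p regions with their summit beyond the end were found at ATM, RIF1, RNF168 and PAXIP1, and none was listed at BRCA1 or BRCA2 within the 5 kb flank. At RIF1 the strongest was 5080 bp wide and began 4.88 kb past the end of the span. It had a fold of 8.78 (percentile 89.1), the highest S2p fold of the gene. Its summit, 6515 bp past the end, was outside the 5 kb flank. The RIF1 entry of the GRCh38 table is longer than the span used here (124534 against 67464 bp). TNFAIP6, 28.6 kb upstream of RIF1, does not overlap that entry, so most of the entry lies downstream of the start. By these lengths the entry takes in both RIF1 S2p regions past the span end, the farther of which ends 77424 bp from the start. No position was converted between the builds. At RNF168 a region of 6190 bp began 100 bp past the end with a fold of 7.79 (percentile 87.1), well above the start region's 4.02. At PAXIP1 a region of 5775 bp ran over the end, with a fold of 6.59 (percentile 83.4). At ATM the region past the end had a fold of 4.32 (percentile 66.2), also the highest S2p fold of the gene. PAXIP1-AS2 overlaps the far end of PAXIP1 in the GRCh38 table, and C11orf65 that of ATM. NEB overlaps the RIF1 entry there, and LOC105374306 that of RNF168. The ChIP does not read strand, so their share in these regions was not tested. Over all 5 S2p regions past a span end the median fold was 6.59, against 3.20 over the 44 in the bodies and 3.58 over the whole list. The 5 include the 2 of RIF1, which are past the span used here but not past its GRCh38 entry. The 4 S5p regions past an end had a median fold of 2.95, against 3.76 over the S5p list.

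Upstream of the start window, only PAXIP1 and BRCA1 carried regions. Both have a close noncoding neighbour, but close neighbours also lie upstream of ATM (429 bp) and BRCA2 (145 bp). RNF168 has a noncoding one at 1584 bp. Whether a neighbour bears on these upstream regions was not tested. At PAXIP1 an S2p region from 6293 to 2673 bp upstream had a fold of 8.12 (percentile 87.8), the highest S2p fold within its span and flanks, and an S5p region from 4131 to 2753 bp upstream had a fold of 5.83. At BRCA1, 2 S5p and 2 S2p regions lay between 4680 and 2308 bp upstream, with folds of 2.89 to 3.59 for S5p and 2.73 to 2.90 for S2p.

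Over the 6 genes together, 44 of 50 S5p regions met S2p (88.0%, exact interval 75.7 to 95.5), against 60.2% over the S5p list. From the other side, 38 of 59 S2p regions met S5p (64.4%, 50.9 to 76.4), against 54.9% over the S2p list. RIF1 weighs heavily in both counts. Among body regions outside RIF1, 8 of 12 S5p regions met S2p (66.7%, 34.9 to 90.1) and 5 of 23 S2p regions met S5p (21.7%, 7.46 to 43.7). Regions within a gene share a source and are not independent, so these intervals cover counting error only and are narrower than the true uncertainty.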

How the data were processed

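Region lists of 3 ChIP-seq libraries were used. Per the submitters' processing notes, the build was hg19 and bcl2fastq 2.20.0.422 was run. Which aligner, region caller, settings and control the authors chose is not given in these sources. Per region, the authors deposited a fold enrichment (a ratio over background), −log10 p- and q-values (for 53BP1, −log10 q-value of at least 1.32), and a score that is 10 times the −log10 q-value within 1. The deposited distance of the summit from the region start was used as given.

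Only chromosomes 1 to 22 and X were used; 1, 2 and 1 rows of the 53BP1, S5p and S2p lists lay elsewhere. Overlap meant at least 1 bp. Positions are 1-based. Gene starts are the span ends set by strand, which the RefSeq promoter table gave for 5 genes; that of PAXIP1 is known. The GRCh38 tables gave sequences, starts and neighbours only, and no position was converted. All 6 members are named, with their strongest, start and 53BP1 regions. A fixed list of 20 other repair genes was not analysed here, since it needs hg19 positions. Members and lists were chosen with earlier results of these data known. The narrow range of S5p fold, the bins and the motifs were chosen after seeing the data. Intervals are exact Clopper-Pearson 95% intervals for counting error. Overlap counting was tested on simulated data. Alternatives were other widenings, start windows, overlap definitions, limits and rankings. Scripts ran in Python 3.11.15 (scipy 1.17.1, pandas 2.3.3, numpy 2.4.6; plots in matplotlib 3.10.9).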

Additional observations from a re-analysis of the deposited data

How the results depend on the processing

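Of 64 alternative values of the main counts, shares and cover, 53 stayed within 1.5 times the main count or inside its exact interval. Several of the 53 could hardly move, so the number does not measure how robust the results are. The S5p start regions had fold percentiles of 85.7 or more, above the limits used. Shares of 5 of 5 were judged against an interval of 47.8 to 100%. RIF1 was the only gene with no 53BP1 region at its start under each of the 5 start windows and limits run for that count. None of these could add a region at RIF1, whose nearest 53BP1 region lay 120.0 kb from its start. Nor could the limits remove one elsewhere, as the lowest fold percentile was 57.1 and the lowest −log10 q-value 8.78. A −log10 q-value limit of 5 left 21 S5p and 31 S2p regions in the 6 genes, and the upper 50% of each list by fold left 17 and 28, with all 5 53BP1 regions kept in both. S5p regions holding 53BP1 then made up 23.8% and 29.4%, since weak body regions were dropped, and 0% when 50% of an S5p region had to be overlapped, since S5p regions were wider than 53BP1 regions. With 50% overlap, 68.0% of S5p regions met S2p. Cover of the spans fell to 5.64% (limit of 5) and 5.40% (upper 50%) for S5p, against 10.4%, and to 9.20% (upper 50%) for S2p, against 14.2%. RIF1 cover fell to 20.3% and 18.6% for S5p, and to 30.2% (upper 50%) for S2p. Without widening, PAXIP1 lost its 53BP1 region, which left 4. The ATM S2p start region moved to the 51.4th percentile when ranked by −log10 q-value, against 25.5 by fold, and the cause was not tested. Because the read depth is unknown, every absence, that of 53BP1 at RIF1 included, means not detected. No paired analysis was possible because a single library stands for each ChIP.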
